A study of Mus musculus with 3 samples.

Results

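The genes described here are chromatin regulators: every gene with a CELF1 binding cluster whose symbol begins with Kdm, Kmt, Setd, Chd, Smarc, Cbx, Brd, Arid or Hdac, followed by a digit (or, for Smarc and Setd, by a letter). They numbered 77 of the 8037 genes with a cluster in any of the 3 libraries, and they held 918 of the 72222 clusters. CELF1 (also CUGBP1) binding was mapped by CLIP-seq, in which ultraviolet light fixes a protein to the RNA it touches, the protein is precipitated with its RNA fragments and these are sequenced. One library came from heart ventricle and one from muscle of 16-week-old C57/BL6 mice, and one from cultured C2C12 cells, a clonal mouse myoblast line. All carried their own CELF1, which was precipitated with the antibody clone 3B1, and the labels do not say which muscle was taken or how many mice. A cluster is a short stretch where reads were denser than the gene's expression and the length of its unspliced RNA led one to expect, and each group is 1 library. No value below therefore has a replicate, no p-value is given, and each 95% interval (exact, Clopper-Pearson) covers counting error only. The intervals treat clusters as independent, although clusters of 1 gene share their source, and are not adjusted for the number of values compared.

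Chromatin regulators decide which stretches of DNA are packed away and which can be read. Writers such as the Kmt and Setd methyltransferases place methyl groups on histone tails. Erasers such as the Kdm demethylases and the Hdac deacetylases take marks off, and readers such as the Cbx and Brd proteins bind the marks. The Chd and Smarc proteins, and some Arid proteins such as Arid1a and Arid1b, belong to ATP-driven machines that slide or evict nucleosomes. CELF1 acts on the RNA of its targets: it binds GU-rich sequence in introns, where it can change which exons are spliced in, and in 3' UTRs, where it can hasten the decay of the mRNA. In striated muscle, class IIa histone deacetylases such as Hdac4 hold back the transcription factor Mef2.

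The stretches that carry the account are shown first, each as the 30 nt with the most UGU (or the whole stretch where it was shorter), in DNA letters with every TGT in capitals, since UGU in RNA is the core of the CELF1 motif. Runs such as TGTGT hold overlapping copies. Sequences and positions are from mm9 (NCBIM37), written 5' to 3' on the strand of the gene. These 7 lie in 3' UTRs and were covered by a cluster in each of the libraries.
Cbx5 (chr15:103024670-103024699, minus strand): gaggggaTGTGTgcattccTGTtTGTGTgg
Smarcc1 (chr9:110140709-110140738, plus strand): tattcttTGTGTGTatctctctcTGTctct
Kmt2a (chr9:44612499-44612528, minus strand): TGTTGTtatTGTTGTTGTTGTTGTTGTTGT
Brd3 (chr2:27302795-27302809, minus strand): agcttTGTaTGTaag
Kdm2a (chr19:4318487-4318513, minus strand): ctgagcttgatgcTGTccaacactcat
Arid1a (chr4:133236205-133236234, minus strand): cacctcccctccccgTGTGTGTGTgagTGT
Cbx6 (chr15:79656641-79656670, minus strand): TGTGTtttcctgagagtcTGTGTcattTGT

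Stretches covered in all 3 libraries were also found in the introns of 6 genes, and 5 of them are shown, because they recurred in myoblasts and both adult tissues. Those of Chd4, Setd5 and Smarcc2 were added after their values were seen. The remaining one, in Hdac4, was only 4 nt long.
Arid1b (chr17:5209430-5209459, plus strand): aggagtttaacTGTctcTGTcTGTctcTGT
Kmt2c (chr5:24794660-24794689, minus strand): ctctggcTGTTGTtttcTGTggTGTgaTGT
Chd4 (chr6:125068275-125068304, plus strand): caTGTtataTGTGTatcTGTcTGTcTGTat
Setd5 (chr6:113071839-113071868, plus strand): cTGTctatcTGTctatctccccctctaccc
Smarcc2 (chr10:127902844-127902873, plus strand): TGTGTacggtTGTtttgcgtgctTGTaTGT

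A further 4 windows, also chosen after their values were seen, come from genes that the heart and muscle results turn on. They were covered in heart and in muscle and not in myoblasts. The Chd9 and Hdac4 windows are intronic, and the Setd7 and Kdm7a windows lie in 3' UTRs.
Chd9 (chr8:93403148-93403177, plus strand): TGTGTGTGTGTggtaTGTaccaTGTGTatg
Hdac4 (chr1:93855491-93855520, minus strand): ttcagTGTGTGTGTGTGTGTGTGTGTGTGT
Setd7 (chr3:51319377-51319406, minus strand): TGTGTtatgaatgaatttttTGTagTGTGT
Kdm7a (chr6:39087025-39087054, minus strand): TGTGTgcatagtagTGTctcatcTGTGTGT

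The libraries were unequal. Heart held 42263 clusters, muscle 24844 and myoblasts 5115, with median widths over all genes of 55 nt, 54 nt and 38 nt. Cluster numbers did not follow sequencing depth, since by the study's account the myoblast library had about as many uniquely mapped reads as the heart library, and muscle fewer. The number of reads behind a cluster is unknown, so counts are given per library and as clusters per 1000 clusters of that library, a scale on which a single myoblast cluster already weighs 0.196 and which is no correction for depth. Marker genes followed the labels in part: 8 of 8 heart ventricle markers had heart clusters (359 in all), with 1 cluster of that list in muscle and 2 in myoblasts. Of 10 skeletal muscle markers 6 were bound in heart (13 clusters), 10 in muscle (105 clusters) and 0 in myoblasts. Of 8 myoblast and proliferation markers 2 were bound in heart (6 clusters), 2 in muscle (4 clusters) and 4 in myoblasts (43 clusters), and Myf5, a defining myoblast gene, had none in any library. The tissues also held other cells. All 7 endothelial markers were bound in heart and 5 of them in muscle, with 73 heart, 23 muscle and 0 myoblast clusters, and their part in the results below was not tested. A gene with more clusters in 1 library may have more RNA per cell, more cells that express it or stronger binding, and these cannot be told apart here.

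Chromatin regulators took nearly the same share of each library. They held 533 of the heart clusters (1.26%, interval 1.16 to 1.37), 314 of the muscle clusters (1.26%, 1.13 to 1.41) and 71 of the myoblast clusters (1.39%, 1.09 to 1.75), so the intervals overlapped throughout. As a class these genes were bound widely. The RefSeq table holds 97 protein-coding genes of the 9 symbol families, of which 77 (79.4%) had a cluster in some library, against 36.6% of all 21883 protein-coding genes. The bound chromatin regulators had more intron sequence, with a median sum of 46.4 kb per gene against 30.02 kb in the other bound genes. Single introns were not longer. Over intronic clusters, the median length of the intron was 12455.5 nt in heart, 8362 nt in muscle and 5529 nt in myoblasts. In other genes it was 19169 nt, 14689.5 nt and 12591 nt. The 3' UTRs were of similar length in both sets (medians of 1658 nt and 1584 nt). All protein-coding genes include any that are silent in these samples. The parts of expression and of gene length in the wider binding were not tested.

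The 20 family genes without a cluster included Hdac1, a ubiquitous class I deacetylase, Cbx3 (heterochromatin protein HP1 gamma), Kmt2d and Kmt2e, Kdm5a, Chd3 and Chd5, and Smarcd3, a muscle and heart subunit of the BAF remodelling complex. A gene can lack a cluster for want of reads, so absence here does not show absence of binding.

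Among the 77 genes, 73 were bound in heart, 59 in muscle and 31 in the myoblast line. Over all 8037 genes the shares were 85.3% for heart, 66.5% for muscle and 34.3% for myoblasts, and the corresponding shares of the chromatin regulators (94.8%, 76.6% and 40.3%) lay above each. In all 3 libraries 28 of the 77 were bound (22.7% over all genes). The shares bound in a single library lay below those over all genes: 16 in heart alone (23.4% over all genes), 2 in muscle alone (8.05%), namely Chd8 and Smarca1, and 1 in myoblasts alone (5.13%), Hdac10. A further 28 (36.4%) were bound in both adult tissues and not in myoblasts, close to the 34.2% of other genes. Smarcd1, a BAF subunit, was bound in heart and myoblasts with 4 and 1 clusters in its 3' UTR and had none in muscle, and Kdm2b, a histone H3 demethylase, was bound in muscle and myoblasts with 1 intronic cluster in each. The leading 10 genes of each library held 46.0% of the heart, 47.1% of the muscle and 57.7% of the myoblast clusters of these genes, so the counts below rest on a short list.

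**Figure D1:**
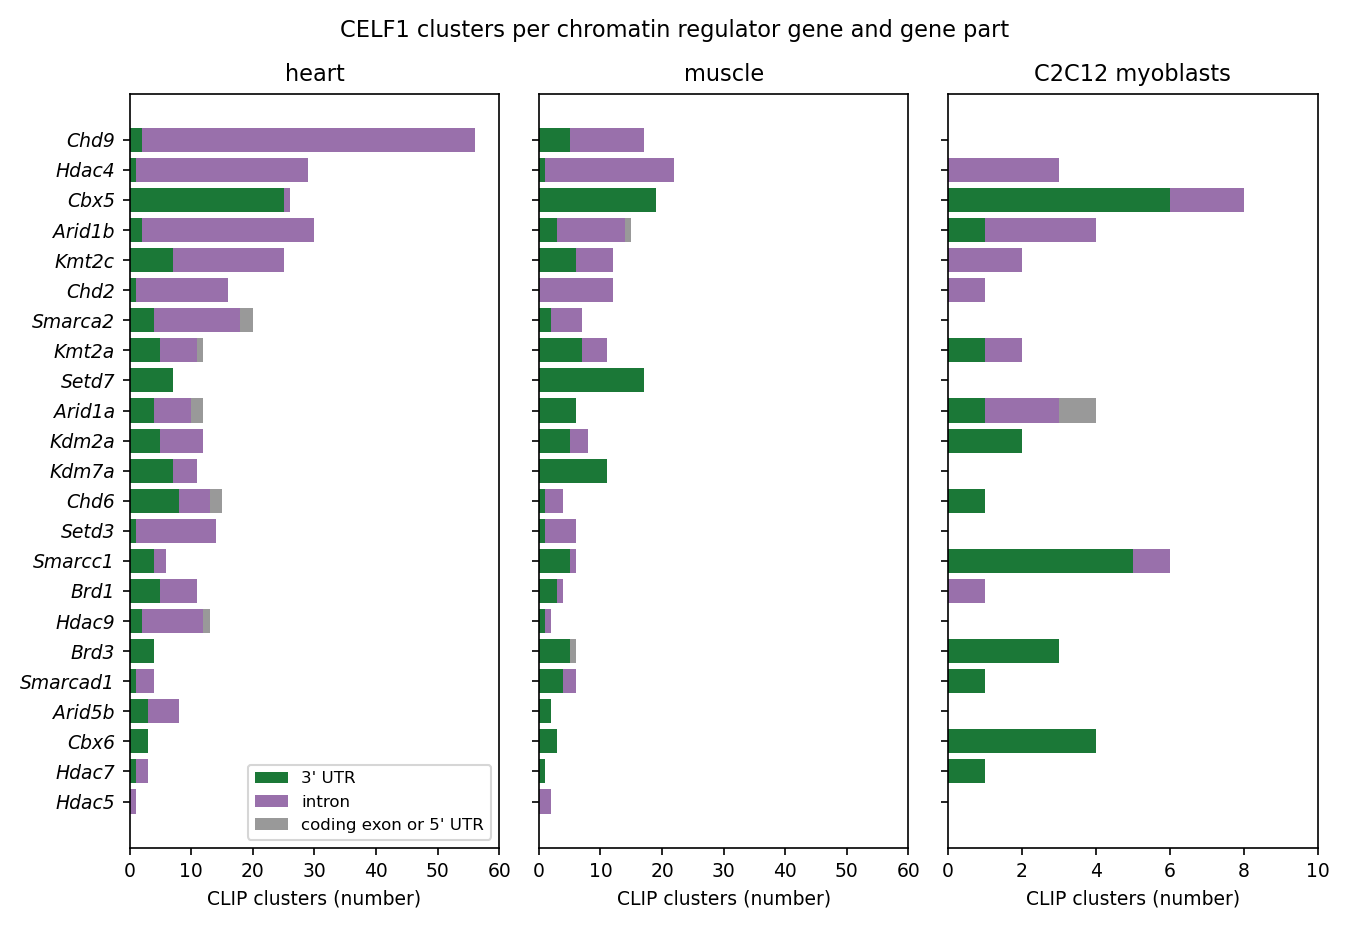
CELF1 clusters in 23 chromatin regulator genes, 1 panel per library, with the number of clusters on the x axis (0 to 60 in heart and muscle, 0 to 10 in C2C12 myoblasts) and colours for the part of the gene. Chd9 led in heart with 56 clusters, nearly all intronic, Setd7 had only 3' UTR clusters, and Cbx5 led in myoblasts with 8.

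The part of the gene differed between the libraries. In heart 151 clusters of these genes lay in 3' UTRs (28.3%, interval 24.5 to 32.4), in muscle 149 (47.5%, 41.8 to 53.1) and in myoblasts 31 (43.7%, 31.9 to 56.0). Introns held 366 heart clusters (68.7%, 64.5 to 72.6), 157 muscle clusters (50.0%, 44.3 to 55.7) and 38 myoblast clusters (53.5%, 41.3 to 65.5). In raw counts heart and muscle thus had almost the same number of 3' UTR clusters, while heart had far more intronic ones. These counts come from libraries of 42263 and 24844 clusters, so equal counts are not equal shares. The myoblast shares depended on cluster width: among the 14 myoblast clusters at least 50 nt wide, a limit set after seeing the data, the 3' UTR share was 71.4% and the intronic share 28.6%.

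The heart share of 3' UTR clusters minus the muscle share was -19.1 percentage points among chromatin regulators and -17.1 points among all other genes, so a gap of this kind was common to both. Chd9, with its 54 intronic heart clusters, did not carry it: without that gene the 3' UTR share was 31.2% in heart and 48.5% in muscle. Of 56 members bound in both tissues, 28 had a lower 3' UTR share in heart, 8 a higher one and 20 the same, against 1817, 790 and 1910 of 4517 other genes.

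Against other genes, the chromatin regulators leaned toward introns in the adult tissues. The intronic share was 68.7% against 58.4% in other genes in heart and 50.0% against 43.1% in muscle, and in both the interval of the chromatin regulators lay above the value of the other genes. Without Chd9 the intronic share was 65.4% in heart and 48.8% in muscle, closer to other genes in both, and no interval is given for these values. The part of the larger summed intron length of these genes was not tested. In myoblasts the chromatin regulators had the lower share (53.5% against 60.5%), but the myoblast interval spanned the other genes. Coding exons were rarely bound, with 14 clusters in heart (2.63%, 1.44 to 4.37), 6 in muscle (1.91%, 0.704 to 4.11) and 2 in myoblasts (2.82%, 0.343 to 9.81), against 5.75%, 4.57% and 3.79% in other genes. The interval of the coding share thus lay below the value of other genes in heart and, on 6 clusters, in muscle, though not in myoblasts.

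**Figure D2:**
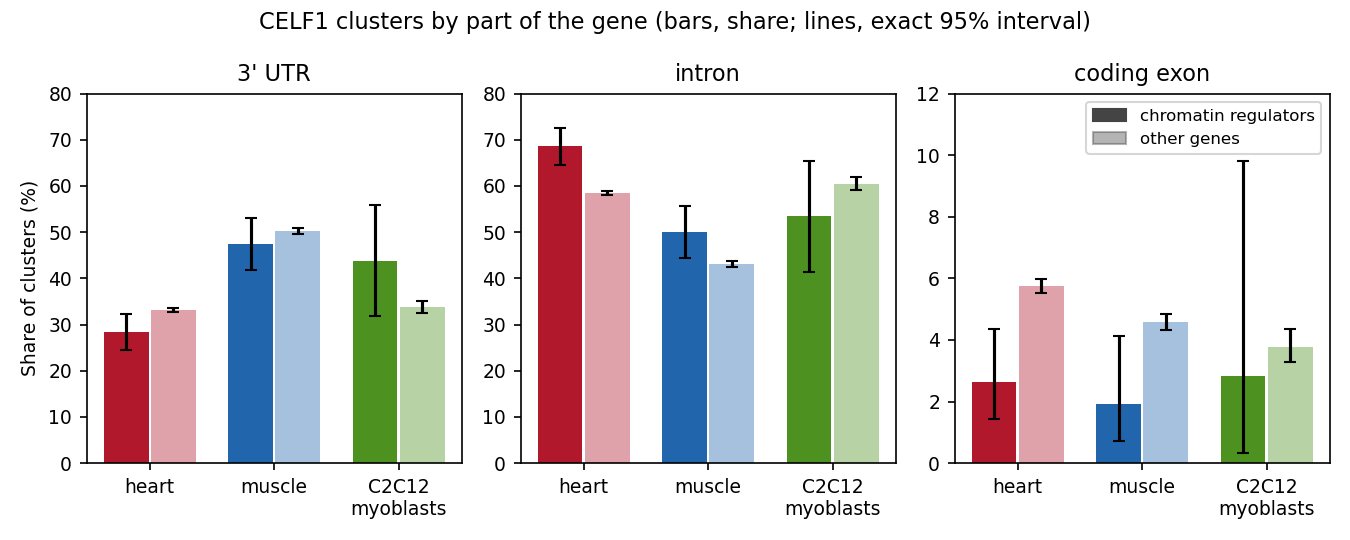
Share of clusters (percent, y axis) in 3' UTRs, introns and coding exons for heart, muscle and C2C12 myoblasts, with chromatin regulators in dark bars, all other genes in pale bars and lines for exact 95% intervals of counting error (the coding exon panel has its own scale). The 3' UTR share of the chromatin regulators was 28.3% in heart, below 47.5% in muscle.

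By genes rather than clusters, 47 of the 77 had a 3' UTR cluster in heart (51.7% over all genes), 39 in muscle (45%) and 15 in myoblasts (14.2%). An intronic cluster was found in 62 in heart (58.5% over all genes), 44 in muscle (38.7%) and 23 in myoblasts (22.6%). A coding exon cluster was found in 12 in heart (18.3%), 6 in muscle (9.29%) and 2 in myoblasts (2.31%). The 13 genes with a 3' UTR cluster in all 3 libraries (9.64% over all genes) included Arid1a, Arid1b, Brd3, Cbx5, Cbx6, Chd6, Hdac7, Kdm2a, Kdm4a, Kmt2a, Smarcad1 and Smarcc1. A set of 20 genes had an intronic cluster in all 3 (11.7% over all genes), among them Arid1b, Chd2, Chd4, Hdac4, Kdm4a, Kmt2a, Kmt2c, Smarca4, Smarcc1 and Smarcc2. Longer sequence held more clusters: across the 77 genes Spearman's rho between intronic clusters and intron length was 0.74 in heart, 0.54 in muscle and 0.22 in myoblasts (0.59, 0.44 and 0.31 in other genes). For 3' UTR clusters and 3' UTR length it was 0.60, 0.54 and 0.30 (0.38, 0.33 and 0.15 in other genes). Genes are not independent replicates, and these values are descriptions.

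The writers were bound unevenly. Setd7 places a single methyl group on histone H3 and also methylates other proteins (chromosome 3 from 51319241 to 51364800, minus strand). It had 7 heart, 17 muscle and 0 myoblast clusters, all of them in its 3' UTR of 5991 nt, of which heart clusters covered 7.06% and muscle clusters 20.4%. Of the 7 heart clusters 6 overlapped a muscle cluster, so most heart sites were among the muscle sites. Per 1000 clusters this is 0.166 in heart and 0.684 in muscle, a ratio of heart to muscle of 0.242 (0.0849 to 0.614), the only ratio below 1 in that pair whose interval excluded 1.

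Setd3, a methyltransferase now known to act on a histidine of actin rather than on histones, showed the reverse emphasis. It had 14 heart, 6 muscle and 0 myoblast clusters, with 13 of the heart and 5 of the muscle clusters in introns and 11 and 3 of them in the single intron 7 of 38589 nt. Kmt2c (Mll3 in the annotation), an enhancer methyltransferase, had 25 heart, 12 muscle and 2 myoblast clusters. Its 3' UTR of 1875 nt held 7 in heart and 6 in muscle, and all 6 muscle intronic clusters overlapped a heart cluster. Kmt2a (Mll1), a histone H3 methyltransferase required for Hox gene expression, had 12 heart, 11 muscle and 2 myoblast clusters. All 5 of its heart 3' UTR clusters overlapped muscle clusters, and the stretch covered in all 3 libraries is the run of TGT repeats printed above, with 10 UGU in 58 nt. Intron 2 of Kmt2a held 5 heart, 4 muscle and 1 myoblast clusters. Over both families, Kmt genes had 48, 30 and 6 clusters in heart, muscle and myoblasts, and Setd genes 41, 35 and 2.

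The erasers were led by Hdac4, a class IIa deacetylase (chromosome 1 from 93829334 to 94044970, minus strand). It had 29 heart, 22 muscle and 3 myoblast clusters, of which 28, 21 and 3 were intronic. Intron 1, of 93283 nt, held 14, 11 and 3. Of the 22 muscle clusters 14 overlapped a heart cluster, and the printed window of TGTGT repeats lies in a stretch of 49 nt with 15 UGU in the short intron 19 of 968 nt. Its annotated 3' UTR is short (593 nt) and held 1 cluster in each adult tissue.

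The other class IIa deacetylases did not share that level. Hdac9 had 13 heart, 2 muscle and 0 myoblast clusters, although its introns sum to 471695 nt, more than those of Hdac4 (211546 nt), and its heart to muscle ratio of 3.82 had an interval of 0.865 to 34.9. Hdac7 had 3 heart, 1 muscle and 1 myoblast clusters, and a 56 nt stretch of its 3' UTR with 6 UGU was covered in all of them. Hdac5 had 1 heart, 2 muscle and 0 myoblast clusters, all intronic. Among demethylases, Kdm7a (Jhdm1d in the annotation), which removes methyl groups from histone H3, had 11 heart, 11 muscle and 0 myoblast clusters, with 7 of the heart and all 11 of the muscle clusters in its 3' UTR of 6591 nt. Kdm2a, a demethylase that binds CpG islands, had 12 heart, 8 muscle and 2 myoblast clusters, and both myoblast clusters overlapped clusters of each adult tissue in its 3' UTR. Kdm3b, named after its values were seen, had 8 clusters in heart, all in introns, and 0 in muscle and in myoblasts. Over the families, Kdm genes had 79, 48 and 10 clusters in heart, muscle and myoblasts, and Hdac genes 54, 29 and 5.

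Among the readers, the Cbx genes were bound mainly in 3' UTRs and the Brd genes about equally in 3' UTRs and introns in heart. Cbx5 (heterochromatin protein HP1 alpha, which binds methylated histone H3; chromosome 15 from 103021975 to 103070247, minus strand) had 26 heart, 19 muscle and 8 myoblast clusters, of which 25, 19 and 6 lay in its 3' UTR of 8100 nt. Those clusters covered 22.3%, 13.4% and 3.47% of the 3' UTR. Of the 19 muscle clusters 11 overlapped a heart cluster and 3 a myoblast cluster. Of the 6 myoblast clusters there 4 overlapped a heart cluster, and 3 stretches were covered in all 3 libraries, centred 259, 4944 and 5390 nt after the start of the 3' UTR. The 2 remaining myoblast clusters lay in intron 1, where heart and muscle had none.

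Cbx6, a Polycomb chromobox protein, had 3 heart, 3 muscle and 4 myoblast clusters, all in its 3' UTR. Each of these 10 is also listed under the overlapping gene Npcd, so their gene is uncertain. Brd3, a bromodomain protein that reads acetylated histones, had 4 heart, 6 muscle and 3 myoblast clusters, with all but 1 of the muscle clusters in the 3' UTR, and Brd1, a scaffold of histone acetyltransferase complexes, had 11, 4 and 1. By family, 33 of 37 Cbx clusters in heart, 22 of 25 in muscle and 10 of 12 in myoblasts were in 3' UTRs, and so were 17 of 34, 17 of 27 and 5 of 11 of the Brd clusters, with 16, 9 and 6 of these in introns. Cbx5 alone gave most of the Cbx counts.

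**Figure D3:**
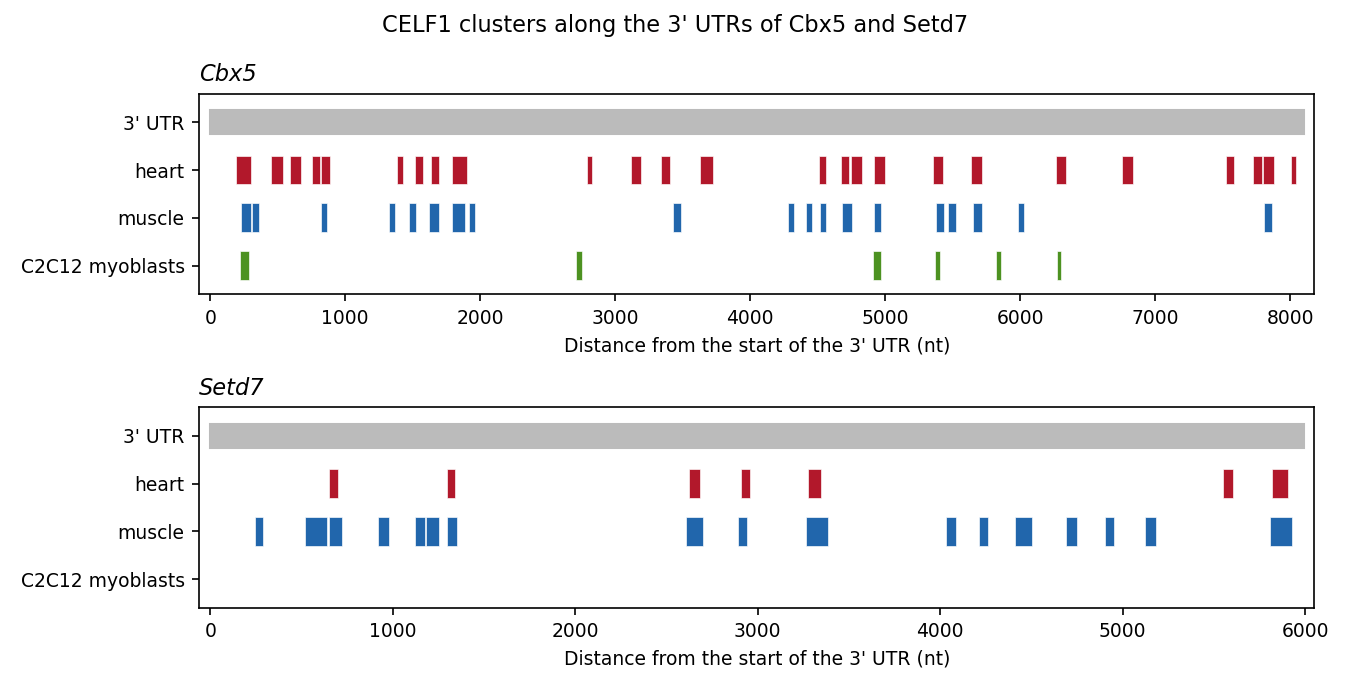
Clusters along the 3' UTRs of Cbx5 (8100 nt) and Setd7 (5991 nt), drawn to scale by distance from the start of the 3' UTR in nt, with a row for each library. Cbx5 had 25 heart, 19 muscle and 6 myoblast clusters, and Setd7 had 7, 17 and 0.

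Of the remaining families, the Chd genes were bound mainly in introns in each library, and the Smarc and Arid genes mainly in introns in heart. Chd9, a chromodomain helicase (chromosome 8 from 93352734 to 93578407, plus strand), had the most clusters of any chromatin regulator, with 56 heart, 17 muscle and 0 myoblast clusters. Among these, 54 in heart and 12 in muscle were intronic, and 36 and 6 lay in intron 2, of 82489 nt. Its 3' UTR went the other way, with 2 clusters in heart and 5 in muscle. Of the 17 muscle clusters 9 overlapped a heart cluster, 6 of the shared stretches in intron 2. Per 1000 clusters Chd9 had 1.33 in heart and 0.684 in muscle, a ratio of 1.94 (1.11 to 3.55), and against the floor of 3 clusters that a count of 0 allows it was at least 2.26-fold higher in heart than in myoblasts. That bound leaves out the counting error of the heart clusters, and the exact interval of the ratio, which includes it, began at 1.78.

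Chd2, a remodeller needed for normal brain function in human, had 16 heart, 12 muscle and 1 myoblast clusters, all but 1 heart cluster in introns and spread over 9 of its 39 introns. Chd6 differed from both, with 8 of its 15 heart clusters in the 3' UTR, against 1 of 4 in muscle and the single one in myoblasts. Chd4, the ATPase of the NuRD complex, had 5, 4 and 2 clusters in heart, muscle and myoblasts, and its printed site lies in intron 25. Over the family, 95 of 109 heart clusters, 36 of 45 muscle clusters and 4 of 5 myoblast clusters were intronic.

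**Figure D4:**
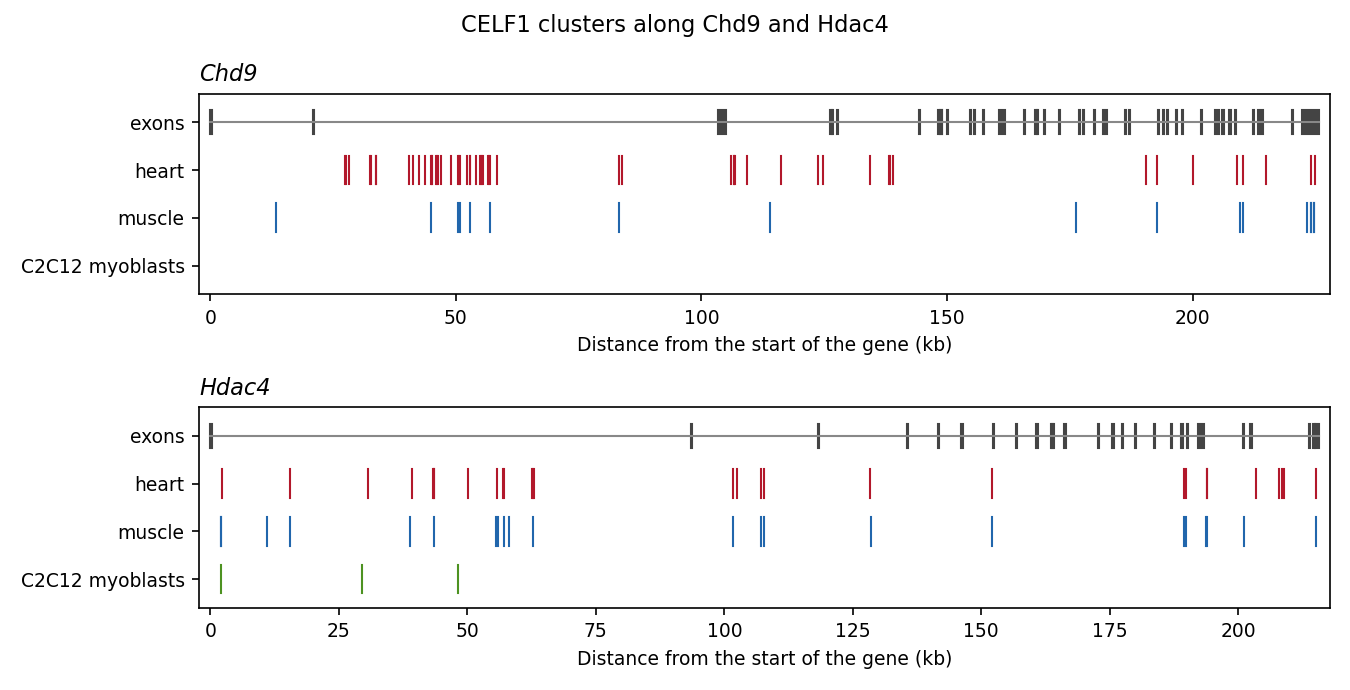
Clusters along Chd9 and Hdac4, drawn to scale by distance from the start of the gene in kb, with exons in the top row and a row for each library. In Chd9 the heart clusters crowd into intron 2 (36 of 56), and in Hdac4 the heart (29) and muscle (22) clusters often lie at the same places.

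Subunits of the BAF complex, the SWI/SNF remodeller of mammals, were bound in different parts. The ATPase Smarca2 had 20 heart, 7 muscle and 0 myoblast clusters, while Smarca4, the alternative ATPase, had 8, 3 and 2, all of them intronic. The core subunit Smarcc1 had 6 clusters in each library, with 4 of the heart, 5 of the muscle and 5 of the myoblast ones in its 3' UTR. Per 1000 clusters this is 0.142 in heart, 0.242 in muscle and 1.17 in myoblasts, a ratio of heart to myoblasts of 0.121 (0.0324 to 0.453) and of muscle to myoblasts of 0.206 (0.0550 to 0.770). Both intervals excluded 1, and 3 of its 5 myoblast 3' UTR clusters overlapped heart clusters. Its partner Smarcc2 had 9, 6 and 2 clusters in heart, muscle and myoblasts.

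The mutually exclusive subunits Arid1a and Arid1b also differed. Arid1b (chromosome 17 from 4994332 to 5347656, plus strand) had 30 heart, 15 muscle and 4 myoblast clusters, with 28, 11 and 3 in introns. Arid1a had 12, 6 and 4, and all 6 muscle clusters lay in its 3' UTR of 1326 nt, of which heart clusters covered 21.8% and muscle clusters 27.0%. Its shared site was centred 16 nt after the start of the 3' UTR. Smarcad1, a remodeller outside BAF, had 4 heart, 6 muscle and 1 myoblast clusters, and Arid5b, grouped by its symbol like all these genes, had 8, 2 and 0. Over the families, Smarc genes had 58, 37 and 12 clusters in heart, muscle and myoblasts, with 36, 15 and 5 in introns and 19, 19 and 7 in 3' UTRs. Arid genes had 73, 38 and 8, with 55, 18 and 5 in introns and 15, 19 and 2 in 3' UTRs. In muscle both families thus had slightly more 3' UTR than intronic clusters. A pair of the muscle clusters, both of Smarcal1, were centred 298 and 2477 nt past the annotated end of the gene.

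Between heart and muscle, 12 of these genes differed by at least 2-fold in clusters per 1000. Among the 48 with at least 5 clusters in heart and muscle together, 5 were at least 2-fold higher in heart (18% over all genes with that many), namely Chd6, Hdac9, Arid5b, Chd7 and Chd1l. Those at least 2-fold higher in muscle were 7 (19.3% over all genes), namely Setd7, Brd3, Smarcad1, Cbx1, Kdm6b, Smarca5 and Smarcal1. Both shares lay below the value over all genes. Chd7, a remodeller mutated in CHARGE syndrome in human, had 7 clusters in heart, against 1 in muscle, and Kdm6b, which removes repressive methyl groups from histone H3, had 1 in heart, against 4 in muscle. Cbx1 (heterochromatin protein HP1 beta) and Smarca5, an ISWI-type ATPase, each had 2 in heart, against 3 in muscle, a difference of a single cluster. Most of these calls rested on a few clusters. Of the 12, only Setd7 had a ratio whose own interval excluded 1 (1 of 48 on the muscle side, 6.02% over all genes). On the heart side the interval excluded 1 for Chd9 and, barely, Kdm3b (2 of 48, 6.76% over all genes), neither of which was past 2-fold.

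Against myoblasts most calls lay on the myoblast side, a direction that the floor itself favours. A myoblast count of 0 was set to 3 clusters, so such a gene needed many adult clusters to be called. Smarca2 (20 heart, 0 myoblast clusters) and Setd7 (17 muscle, 0 myoblast clusters) were therefore not called. A count of 1 was used as it stood, as in Chd2 (12 muscle, 1 myoblast cluster), which was called. Of 40 genes with at least 5 clusters in heart and myoblasts together, 1 was at least 2-fold higher in heart (5.05% over all genes), Chd9, and 13 were at least 2-fold lower in heart than in myoblasts (22.7%). Of 30 genes for muscle and myoblasts, 1 was at least 2-fold higher in muscle (8.11%), Chd2, and 9 were at least 2-fold lower in muscle than in myoblasts (19%). The shares standing higher in myoblasts (13 of 40 and 9 of 30) exceeded those over all genes, but a single myoblast cluster can reach the threshold, as in Smarcad1, Setd1a and Smarcd1 (named for that count), each with 4 heart clusters and 1 myoblast cluster (ratio 0.484, interval 0.0479 to 23.8). Intervals that excluded 1 on the myoblast side were found for Smarcc1, Cbx6 and Brd8 against heart (3 of 40; 5.48% over all genes) and for Smarcc1 and Cbx6 against muscle (2 of 30; 5.98%), and on the other side for Chd9 over myoblasts in heart (1 of 40; 1.86%) and for no gene in muscle (0 of 30; 3.04%). Brd8, a subunit of a histone acetyltransferase complex named here for that interval, had 3 heart, 2 muscle and 3 myoblast clusters, and Cbx6 carries the doubt given above. Of 118 such ratios computed over the 3 pairs, 9 had an interval that excluded 1, and the intervals are not adjusted for that number.

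Heart and muscle clusters fell on each other's sites in these genes about as often as elsewhere. Of the heart clusters 28.7% (24.9 to 32.8) overlapped a muscle cluster by at least 1 bp on the same strand, and of the muscle clusters 50.3% (44.6 to 56.0) overlapped a heart cluster, against 30.9% and 52.8% in other genes. Of the myoblast clusters 40.8% (29.3 to 53.2) overlapped a heart cluster and 35.2% (24.2 to 47.5) a muscle cluster, against 33.8% and 24.9% in other genes. Both of these intervals spanned the value of other genes. In the converse direction 5.44% (3.67 to 7.72) of heart and 8.28% (5.48 to 11.9) of muscle clusters overlapped a myoblast cluster, against 4.17% and 5.25% in other genes, and only the muscle interval lay above, on 26 clusters.

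Overlap differed by the part of the gene. Of the 3' UTR clusters in heart, 51.7% (43.4 to 59.9) overlapped muscle, against 20.2% (16.2 to 24.7) of the intronic ones. Of the 3' UTR clusters in myoblasts, 64.5% (45.4 to 80.8) overlapped heart, against 23.7% (11.4 to 40.2) of the intronic ones. In muscle the gap was small, with 55.7% (47.3 to 63.8) of 3' UTR and 47.1% (39.1 to 55.3) of intronic clusters overlapping heart. Other genes showed the same order, with 53.9% against 19.0% for heart in muscle. For muscle in heart they had 60.9% against 43.6%, a wider gap, though both values lay inside the intervals of the chromatin regulators. Clusters that overlapped both other libraries were 22 in heart (4.13%, against 2.56% in other genes), 21 in muscle (6.69%, against 4.28%) and 21 in the myoblast line (29.6%, against 1009 of 5044), so each share was above that of other genes. The same sites underlie the 3 shares.

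**Figure D5:**
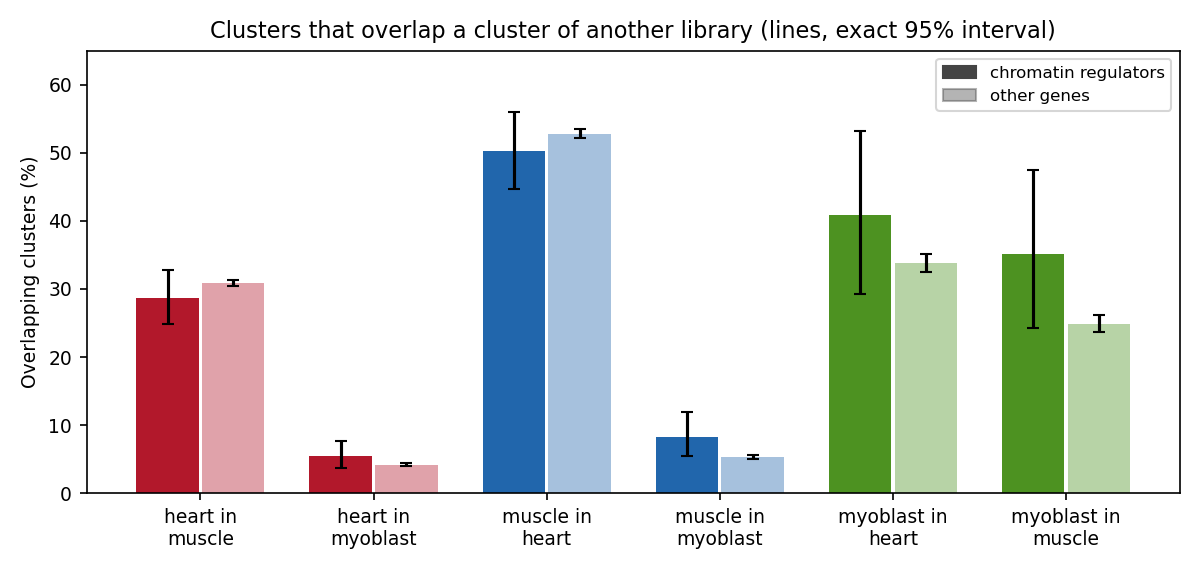
Share of clusters (percent, y axis) that overlap a cluster of another library, for each direction, with chromatin regulators in dark bars, other genes in pale bars and lines for exact 95% intervals of counting error. Of the muscle clusters 50.3% overlapped heart and of the heart clusters 28.7% overlapped muscle, close to other genes.

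Nearly all clusters held UGU. The share was 98.9% (97.6 to 99.6) in heart, 96.5% (93.8 to 98.2) in muscle and 87.3% (77.3 to 94.0) in myoblasts, against 98.3%, 98.4% and 86.3% in other genes. Only 6 heart, 11 muscle and 9 myoblast clusters lacked it. The muscle interval lay just below the other genes, and 9 of its 11 exceptions were in 3' UTRs. The longer UGUGU was held by 52.9%, 46.5% and 36.6% of the clusters in heart, muscle and myoblasts, against 50.7%, 45.3% and 33.4% in other genes. UGU was denser in introns than in 3' UTRs in each library, with 11.1, 12.3 and 8.96 UGU per 100 nt in intronic clusters of heart, muscle and myoblasts and 6.17, 5.82 and 7.36 in 3' UTR clusters. Other genes showed this too, with 11.5, 11.5 and 9.47 in intronic and 5.58, 5.64 and 6.53 in 3' UTR clusters. Of the 15 stretches covered in all 3 libraries in the 3' UTRs of 9 genes, 14 held UGU, as did all 6 in introns, and the exception was the second Kdm2a stretch of 16 nt. These searches read the strand of the gene only, and a match is a description of the sequence.

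Some intronic clusters lay close to exons. Within 300 nt of an annotated exon were 45 intronic clusters in heart (12.3%, 9.11 to 16.1), 26 in muscle (16.6%, 11.1 to 23.3) and 13 in myoblasts (34.2%, 19.6 to 51.4), against 12.5%, 15.1% and 16.3% in other genes. The myoblast interval of these genes thus lay above the value of other genes, on 13 clusters. In Kmt2c a stretch downstream of the 250 nt exon at chr5:24794808-24795057 was covered in all libraries, by clusters centred 142 nt from it in heart, 136 nt in muscle and 131 nt in myoblasts. In Setd5, a SET domain protein, a stretch downstream of the 243 nt exon at chr6:113071562-113071804 was covered by clusters centred 44 nt from it in heart, 33 nt in muscle and 76 nt in myoblasts.

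Further near-exon sites were shared by the adult tissues alone and are named after their values were seen. In Kdm4a, a histone H3 demethylase, a 55 nt stretch with 15 UGU lay upstream of a 248 nt exon (chr4:117835000-117835247), with cluster centres 50 nt away in heart and 47 nt in muscle. In Hdac4, clusters in both tissues were centred 124 nt upstream of a 122 nt exon (chr1:93892634-93892755). In Kdm1a, the flavin-dependent demethylase LSD1, the annotation holds an exon of only 12 nt (chr4:136119353-136119364); mammalian Kdm1a has a neuron-specific exon of that length. Heart clusters were centred 120 and 179 nt upstream and 211 nt downstream of it, and a muscle cluster 102 nt upstream. Whether any of these exons is spliced differently was not measured here.

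Within 3' UTRs the clusters lay on both sides of the midpoint. In heart 70 of 151 (46.4%, 38.2 to 54.6), in muscle 61 of 149 (40.9%, 33.0 to 49.3) and in myoblasts 15 of 31 (48.4%, 30.2 to 66.9) lay before the midpoint of the 3' UTR, against 53.0%, 50.5% and 50.4% in other genes. Only the muscle interval lay below the value of other genes. Per length, 3' UTR clusters numbered 0.893, 0.881 and 0.183 per kb of 3' UTR in heart, muscle and myoblasts, against 0.907, 0.809 and 0.112 in other genes. Intronic clusters numbered 6.70, 2.87 and 0.695 per 100 kb of intron, against 4.57, 1.98 and 0.572 per 100 kb in other genes. These densities pool all genes of a set. The pooled intronic density of the chromatin regulators was the higher in each library, in myoblasts on 38 clusters. The median over genes with an intronic cluster was 6.49, 3.95 and 2.45 per 100 kb in heart, muscle and myoblasts. In other genes it was 6.24, 4.09 and 2.32, so the medians were close and the muscle order was reversed.

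Genes of chromatin regulation outside the symbol families were bound to a like degree. Of 73 such genes, listed by function, heart clusters were found in 54 (74.0%), muscle clusters in 48 (65.8%) and myoblast clusters in 32 (43.8%). Of the 97 protein-coding genes of the families 75.3% were bound in heart, 60.8% in muscle and 32.0% in myoblasts, and over all protein-coding genes the shares were 31.3%, 24.4% and 12.6%. The 73 genes held 498, 285 and 64 clusters, or 11.8, 11.5 and 12.5 per 1000. Smyd3, a SET and MYND domain methyltransferase, led them in myoblasts with 8 clusters, after 38 in heart and 15 in muscle. Nsd1, a histone H3 methyltransferase, and Dnmt3a, a DNA methyltransferase, were bound in the adult tissues only, with 23 and 20 clusters for Nsd1 in heart and muscle and 20 and 14 for Dnmt3a. Jarid2, a component of Polycomb repressive complexes needed for heart development, had 24 heart, 14 muscle and 1 myoblast clusters.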

How the data were processed

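CLIP-seq with the 3B1 antibody was done on heart ventricle and muscle of 16-week-old mice and on C2C12 myoblasts, 1 library each, with crosslinking at 254 nm. Per the study's methods, the authors removed duplicate reads and adapters, mapped uniquely matching reads to mm9 with Bowtie and TopHat and called clusters in each library with a Poisson test. Versions of both mappers were not given in the sources used here. The deposited cluster lists give bounds, strand and an Entrez gene identifier. A deposited score column holds 1e-06 for each cluster and went unused, as nothing explains it. Unique mapping leaves out repeated sequence.

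Clusters were used as deposited, with BED starts taken to count from 0 and positions printed from 1. A RefSeq table (GRCm38.p6) gave symbols for the identifiers and no coordinates, and 7977 of 8037 (99.3%), including all 77 members, were matched to GENCODE vM1 genes on NCBIM37, the assembly of mm9. For 7 members the annotation has an older name. A cluster took the gene part of its midpoint, in the order 3' UTR, coding exon, 5' UTR, intron, over protein-coding transcripts. Introns were numbered from the 5' end between merged exons. Ratios used clusters per 1000 clusters of the library and genes with at least 5 clusters over the pair, and a count of 0 was set to a floor of 3 clusters. Overlap required 1 bp on the same strand (bedtools 2.31.1). Motifs were searched on the gene's strand. Programs were Python 3.11.15, scipy 1.17.1, pandas 2.3.3, matplotlib 3.10.9, pysam 0.24.0 and numpy 2.4.6. The calls were tried on simulated heart and muscle counts, with changes well above 2-fold in genes with many clusters. That simulation did not check calls on few clusters or in the myoblast pairs. The part assignment was tried on midpoints placed in known intervals, which checks only the lookup.

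Genes were named by rule: the 10 with most clusters, the leading 2 of each family, up to 10 with 3' UTR clusters in all 3 libraries, up to 3 past 2-fold in each pair and direction, and the class IIa Hdac genes. A single gene among those selected is not reported here and is counted only in the sums. The members, lists and rules were chosen with earlier results of these data known. Alternatives covered cluster width, joining, gene part, overlap, motif, thresholds and leaving out Chd9.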

Additional observations from a re-analysis of the deposited data

How the results depend on the processing

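Of 135 values recomputed under an alternative, 96 moved by less than counting error, or for counts by less than 1.5 times, and 39 by more. Of these 96, 27 came from the planned minimum width of 30 nt and could not have moved. Shares of the myoblast clusters without Chd9 could not move either, since that gene had 0 clusters there. Without Chd9 the heart share was 1.13%. Requiring 2 clusters per gene left 19 genes in myoblasts. The planned minimum width of 30 nt removed nothing, since the narrowest cluster was 35 nt, so a minimum of 50 nt was added after seeing the data. It left 318 heart, 171 muscle and 14 myoblast clusters (11 genes), with 3' UTR shares of 35.8%, 59.6% and 71.4% and intronic shares of 61.9%, 39.8% and 28.6%. At that width 3.46% of heart clusters overlapped myoblasts, 78.6% of myoblast clusters overlapped heart and 71.4% muscle, UGU was held by 98.2% in muscle and 100% in myoblasts, and the 2-fold counts were 4 for muscle over heart, 0 for heart over myoblasts, 8 for myoblasts over heart and 0 for muscle over myoblasts. With overlap of 50% of both clusters the shares were 24.2% for heart in muscle, 3.19% for heart in myoblasts, 41.1% for muscle in heart, 5.41% for muscle in myoblasts, and 23.9% for myoblasts in heart and 23.9% in muscle. In the central 30 nt UGU was held by 93.2% in heart and 91.4% in muscle, and UGUU or UGUG in the whole cluster by 88.6%, 85.7% and 66.2% in heart, muscle and myoblasts. With at least 10 clusters over the pair the 2-fold counts were 3 for heart over muscle, 3 for muscle over heart, 5 for myoblasts over heart and 3 for myoblasts over muscle. At 3-fold they were 3 and 3 for heart over muscle and muscle over heart, 0 and 5 for heart over myoblasts and myoblasts over heart, and 0 and 5 for muscle over myoblasts and myoblasts over muscle. With 1 library per group, few myoblast clusters and no read number per cluster, differences between libraries have no replicate check, and a gene without a cluster may be bound below what its library could detect. No paired analysis was possible because each group holds a single library and no value comes from a test.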
